A study of Macaca mulatta with 449 samples.

Results

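The dentate gyrus (DG) of the rhesus macaque was set against the CA fields of the same hippocampus. The 8 DG libraries were compared with the within-animal sums of the 8 CA1 and 8 CA3 libraries, so that 24 of the 408 libraries in the count table of a brain atlas were used, and they were chosen by their sub-region labels alone. That table covers 51 brain sub-regions from each of 8 macaques, whose total RNA was sequenced after removal of ribosomal RNA (midbrain libraries were not analysed here), and its hippocampal samples serve to find genes that tell neighbouring sub-regions apart. The animals were 4 males and 4 females, with no treatment or genetic change in the labels. The 4 young animals were 3.2, 3.8, 4 and 5 years old, and the 4 mid-aged animals were 9.8, 10, 10 and 10 years old. Each DG library held between 8593956 and 13207900 gene counts, and each sum of CA1 and CA3 held between 17612200 and 24851952.

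The DG, CA3 and CA1 form the classical relay of the hippocampus. Granule cells of the DG receive input from the entorhinal cortex and send mossy fibres to the pyramidal cells of CA3, which project in turn to the pyramidal cells of CA1. The granule cell layer is known for its small, densely packed and sparsely firing neurons, for the transcription factor PROX1 that sets their identity, and for the addition of new neurons after birth. All samples were pieces of tissue, in which fewer cells of a type and less RNA per cell cannot be told apart.

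The labels were first checked against marker genes. The mean log2(CPM + 1) over the 16 measured granule cell markers ran from 5.64 to 6.29 in DG (median 6.12), from 5.05 to 5.83 in CA1 (median 5.65) and from 5.19 to 5.79 in CA3 (median 5.58), where CPM is the count scaled to the library size after TMM adjustment. The level in DG was above that of CA3 in all 8 animals and above that of CA1 in 7, the exception being animal 2. The mean over the 11 measured CA1 pyramidal cell markers ran from 2.79 to 3.76 in DG (median 3.05), from 3.47 to 5.09 in CA1 (median 4.58) and from 3.24 to 5.21 in CA3 (median 4.44), and DG was below both CA fields in all 8 animals. The libraries labelled CA1 and CA3 were hardly told apart by these markers, with CA1 above CA3 in only 5 of 8 animals. Between the CA fields 3 of 14796 genes (0.0203%) were called, or 19 by DESeq2. These counts pool all 8 animals, including those with higher CA1 markers in the library labelled CA3. They do not measure how far the fields differ in the other animals, for which no count is given. In animal 11 the library labelled CA1 stood at 3.47 and that labelled CA3 at 5.03, and in animal 6 they stood at 4.69 and 5.21. The library labelled CA3 of animal 8 had the lowest value of that group, 3.24, and also the most PROX1 of any CA library. The DG library of animal 2 had the highest value of its group, 3.76. The sum of CA1 and CA3 does not depend on which of these labels an animal's CA libraries carry, whereas the separate comparisons with CA1 and with CA3 do.

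**Figure D1:**
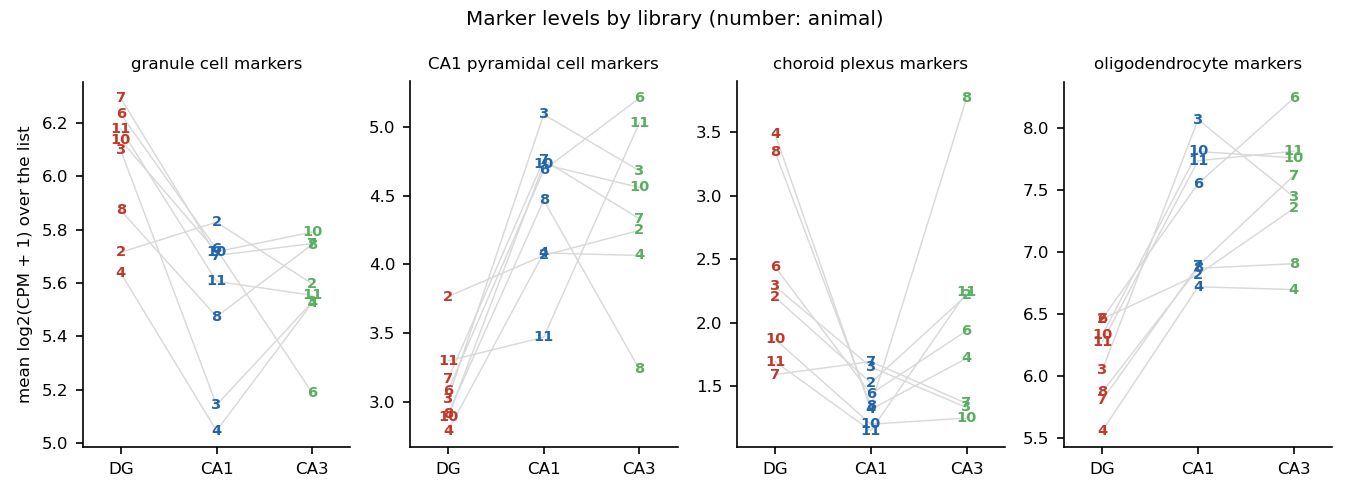
Mean log2(CPM + 1) of 4 marker lists (y axis) in the DG, CA1 and CA3 libraries (x axis), with each library drawn as the number of its animal and lines joining libraries of 1 animal. DG was highest for granule cell markers in 7 of 8 animals and lowest for CA1 and oligodendrocyte markers in all 8; choroid plexus markers were high in the DG of animals 4 and 8 and in the CA3 of animal 8.

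Genes lower in DG were more numerous and reached larger folds than genes higher in DG. At a false discovery rate (FDR) under 0.05 and a fold above 2 in edgeR's quasi-likelihood test with the animal as block, 128 of 15052 genes were called higher in DG (0.85%) and 363 were called lower (2.41%). None of the genes called higher exceeded a fold of 4, and their median log2FC was 1.16. Among those called lower, 34 exceeded a fold of 4, and the median log2FC was -1.27. Of the 491 called genes (3.26%), 358 changed alike in all 8 animals, and 112 had no symbol in the reference table. Differences of any size were widespread: 5516 genes (36.6%), the 491 called among them, had an FDR under 0.05. Of all genes tested, 2621 (17.4%) were higher and 2895 (19.2%) lower in DG at that FDR. The median log2FC over all genes tested was -0.016. The counts of called members in the gene lists that follow stand beside these shares of all genes.

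**Figure D2:**
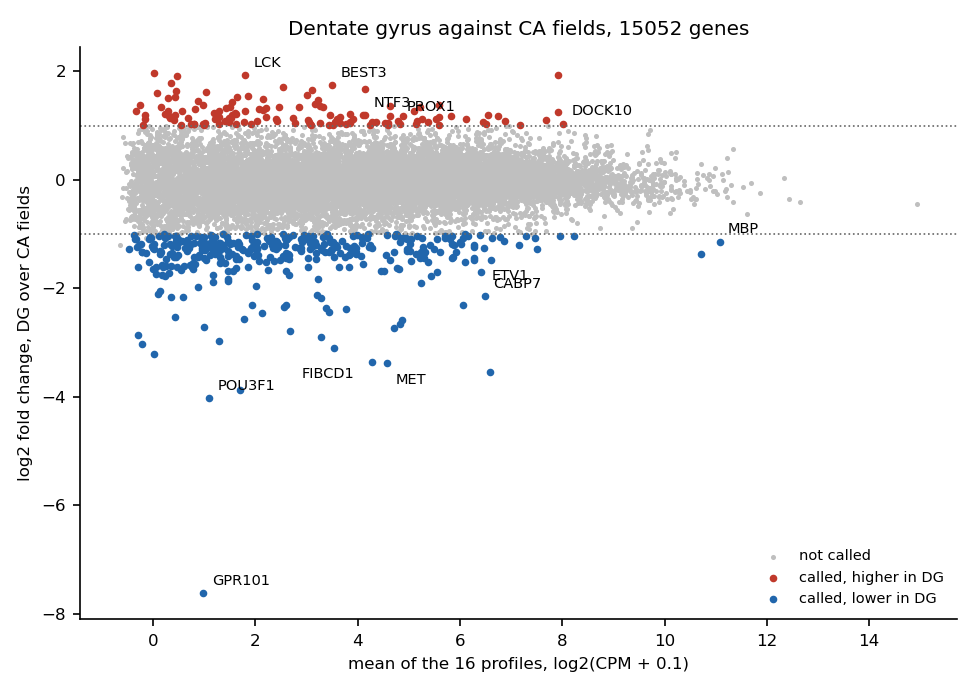
Log2 fold change of DG over the CA fields (y axis) against the mean level over the 16 profiles, log2(CPM + 0.1) (x axis), for 15052 genes, with the 128 genes called higher in DG in red and the 363 called lower in blue. The dotted lines mark a fold of 2; the red points end at 1.97, while the blue points reach -4.02 and, for GPR101, -7.62.

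The animals differed in how far DG stood from the CA fields. The genes called without a given animal were looked up in that animal, which had no part in choosing them. In animal 6, 93 of 94 genes called higher (98.9%) and 314 of 317 called lower (99.1%) kept their direction. In animal 2 the shares were 137 of 190 (72.1%) and 327 of 443 (73.8%), and the median log2 difference was 0.22 for the higher genes and -0.41 for the lower genes, against 1.19 and -1.31 in the other 7 animals. In the other 6 animals the shares lay between 86.6% and 96.2% for higher genes and between 90.8% and 98.5% for lower genes. Animal 2 was the sole exception for 80 of the called genes. Without it, 190 genes were called higher and 443 lower.

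BEST3, which encodes a bestrophin chloride channel (ENSMMUG00000004786), was among the genes highest in DG relative to the CA fields. Its level in DG ran from 6.73 to 25.3 CPM with a median of 20.5, and in the CA fields from 1.78 to 9.67 CPM with a median of 5.05. DG was higher in each of the 8 animals, although the lowest DG library lay within the range of the CA fields. The log2FC was 1.75 ± 0.19 (SE, FDR = 4.01e-05), and it was 2.08 against CA1 (FDR = 8.86e-05) and 1.49 against CA3 (FDR = 0.000867). On CPM of the unscaled library total, DG had the highest BEST3 of all 51 sub-regions in all 8 animals, with a mean of 17.6. CA3 followed with 6.31, and the highest sub-region outside DG and the CA fields was the corpus callosum with 0.557.

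GALNT5, a glycosyltransferase that starts O-linked chains on proteins (ENSMMUG00000017717), was far less abundant and less even. It ran from 0.083 to 4.67 CPM in DG (median 1.32) and from 0 to 1.61 CPM in the CA fields (median 0.581), and the groups overlapped over most of their range. Within each animal DG was the higher, with a log2FC of 1.53 ± 0.25 (FDR = 0.000656). Without the animal block the log2FC of GALNT5 was 1.59 and did not pass (FDR = 0.0888). Over the 51 sub-regions DG ranked at place 3 for GALNT5, and the pituitary led with 15.5 on the same scale.

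The 12 genes named as highest in DG included signalling genes. NTF3, the neurotrophin that acts on the receptor TrkC (ENSMMUG00000014646), ran from 19.5 to 36.1 CPM in DG (median 25.6) and from 3.92 to 15.1 CPM in the CA fields (median 7.33). No DG library overlapped with a CA profile, and the log2FC was 1.68 ± 0.17 (FDR = 2.53e-05). LCK, a Src-family tyrosine kinase best known from T cells (ENSMMUG00000040694), ran from 2.74 to 8.13 CPM in DG (median 5.39) and from 0.645 to 2.83 CPM in the CA fields (median 1.31). The groups met only at their edges, and the log2FC was 1.92 ± 0.27 (FDR = 0.000251). For LCK the log2FC was 3.18 against CA1 and 1.24 against CA3. The kinase-family member PLK5 had a log2FC of 1.65 ± 0.26 (FDR = 0.000441), and its DG levels, 5.81 to 28 CPM, overlapped with the CA levels of 2.36 to 8.52 CPM.

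The remaining genes of the 12 included a developmental regulator, secreted proteins and transporters. MAB21L2, known from eye and limb development, ran from 4.23 to 20.8 CPM in DG and from 1.38 to 6.35 CPM in the CA fields, with a log2FC of 1.57 ± 0.16 (FDR = 3.33e-05). TLL1, a metalloprotease that processes procollagen and activates BMP signalling, ran from 2.99 to 5.95 CPM in DG against 0.953 to 2.48 CPM, with no overlap and a log2FC of 1.52 ± 0.20 (FDR = 0.000155). The mucin MUC15 did not overlap either, with 1.84 to 5.46 CPM in DG, 0.496 to 1.70 CPM in the CA fields and a log2FC of 1.62. The lipocalin LCN1 had the largest log2FC of the 12, 1.97 ± 0.47 (FDR = 0.00612), from low and overlapping levels of 0.341 to 3.06 CPM in DG and 0.050 to 0.763 CPM in the CA fields. The organic anion transporter SLC22A8, the channel-like protein CLIC6 and the folate receptor FOLR1 completed the set and are described with the choroid plexus markers. LCK, like BEST3, had DG as the highest of the 51 sub-regions by its mean, and in 6 of 8 animals; NTF3 also led by its mean, in 5 of 8 animals. Of the 128 genes called higher in DG, 53 (41.4%) had their highest mean there, against 596 of 15052 genes tested (3.96%). The same DG libraries chose the 128 genes, so a share above that of all genes follows in part from the choice.

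**Figure D3:**
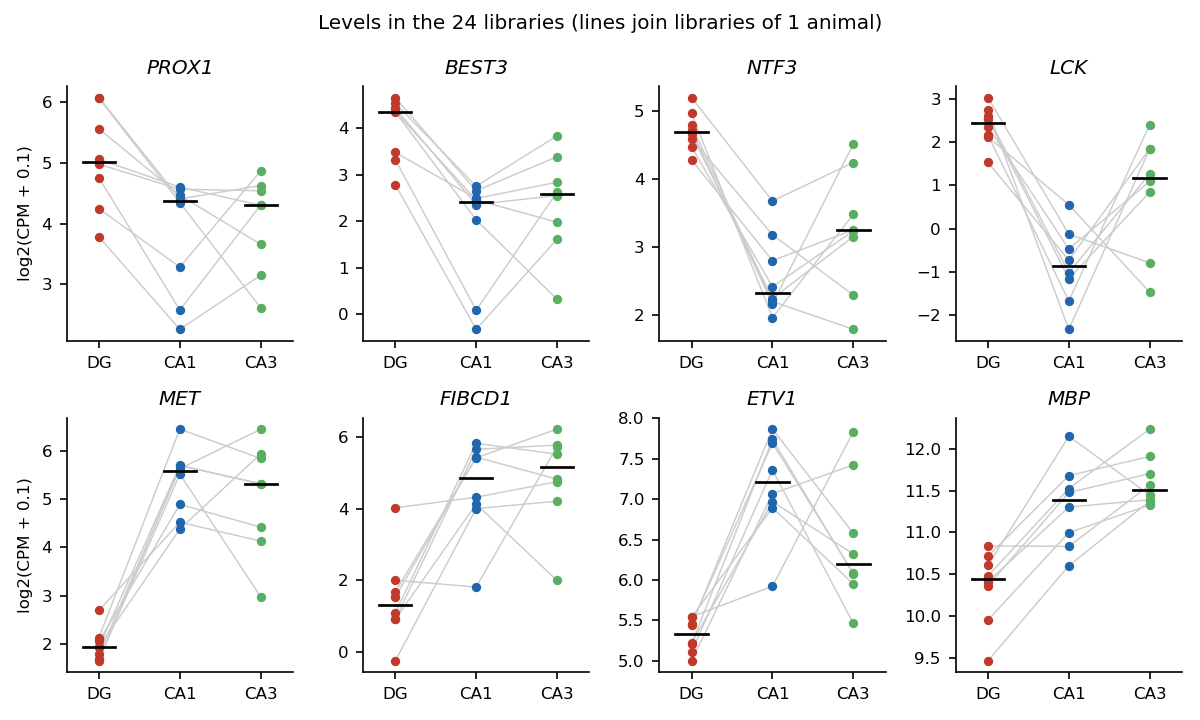
Levels of 8 genes as log2(CPM + 0.1) (y axis) in the 24 libraries of DG, CA1 and CA3 (x axis), with points for libraries, grey lines joining the libraries of 1 animal and black bars for medians. NTF3 and BEST3 were highest in the DG library of every animal and LCK in 6 of 8, while MET, ETV1 and MBP had their lowest medians in DG; BEST3 and PROX1 overlapped between the sub-regions.

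Of the 16 granule cell markers tested, 3 were called higher in DG, none was called lower, and the list median was a log2FC of 0.43 against -0.016 over all genes, of which 0.85% were called higher. PROX1 (ENSMMUG00000011914) ran from 13.8 to 67.9 CPM in DG with a median of 32.5, and from 6.90 to 23.6 CPM in the CA fields with a median of 17.7. DG was higher in all 8 animals, but the groups overlapped, and in animal 8 the values were nearly the same, 18.7 and 17.6 CPM. The log2FC of PROX1 was 1.08 ± 0.20 (FDR = 0.00134), and without animal 6 it was 0.90, under the fold of 2. PROX1 was present in every CA library, from 4.69 to 24.2 CPM in CA1 and from 6.03 to 29.1 CPM in CA3. DOCK10, a guanine nucleotide exchange factor, ran from 235 to 442 CPM in DG and from 124 to 219 CPM in the CA fields without overlap, with a log2FC of 1.04 ± 0.13 (FDR = 0.000111), which became 0.997 without animal 3 and 0.95 without animal 6. The cation channel TRPC6 had a log2FC of 1.04 ± 0.18 (FDR = 0.000928), which became 0.98 without animal 10 and 0.91 without animal 3.

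The other granule cell markers differed less. CALB1, the calcium buffer calbindin, had 355 to 675 CPM in DG and 285 to 423 CPM in the CA fields. It was higher in DG in 8 of 8 animals, with a log2FC of 0.58 ± 0.08 (FDR = 0.000216) that stayed under the fold of 2. STXBP6, a regulator of vesicle fusion, had a log2FC of 0.97 (FDR = 0.000457). C1QL2, a synaptic organizer of mossy fibres, had a log2FC of 0.24 and did not pass (FDR = 0.0695). SV2C, a synaptic vesicle protein, had a log2FC of -0.99 (FDR = 0.00912), opposite to the direction of its list.

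CA1 pyramidal cell markers had the lowest median of the lists. Of the 11 CA1 pyramidal cell markers tested, 7 were called lower in DG and none higher, with a list median of -1.91 and against 2.41% of all genes called lower. FIBCD1, an acetyl-group-binding receptor used as a CA1 marker (ENSMMUG00000012713), ran from 0.747 to 16.3 CPM in DG with a median of 2.41, and from 11.7 to 59.3 CPM in the CA fields with a median of 31.3. The overlap came from the DG library of animal 2, at 16.3 CPM, while the other DG libraries reached no more than 3.92 CPM. The log2FC of FIBCD1 was -3.35 ± 0.41 (FDR = 9.89e-05). POU3F1, a POU-domain transcription factor, ran from 0 to 1.15 CPM in DG and from 1.64 to 7.38 CPM in the CA fields, without overlap and with a log2FC of -4.02 ± 0.51 (FDR = 0.000127). MPPED1 (-2.38), the heparan sulphate enzyme NDST4 (-2.12), the matricellular protein CCN3 (-1.91) and the mannosidase MAN1A1 (-1.28) were also called, given by their log2FC. By contrast, none of the 8 CA3 markers and none of the 12 markers shared by all CA pyramidal cells was called, with medians of 0.14 and 0.15.

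Beyond the marker lists, the 12 genes named as lowest in DG included receptors and a guidance gene. GPR101, an orphan G protein-coupled receptor (ENSMMUG00000005605), had 1 count over all 8 DG libraries and 647 counts over the CA libraries. The CA profiles held 1.34 to 8.16 CPM of GPR101 and the highest DG library 0.094 CPM, so the groups were fully apart (log2FC -7.62, FDR = 1.36e-07). From the counts alone the CA level was 334 times the DG level, with an exact 95% interval of 59.7 to 13207 that covers counting error only. Among CA libraries GPR101 was uneven: 6 animals had 2.77 to 16.1 CPM in the library labelled CA1 and at most 0.357 CPM in that labelled CA3, while animals 6 and 11 had 5.60 and 2.05 CPM in CA1 and 7.17 and 5.75 CPM in CA3. NTS, the precursor of the peptide neurotensin, was also uneven, with medians of 6.51 CPM in CA1 and 0.884 CPM in CA3 against 0.233 CPM in DG, and a log2FC of -3.87 ± 0.48 (FDR = 0.000112).

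MET, the receptor of hepatocyte growth factor (ENSMMUG00000006779), ran from 3.01 to 6.44 CPM in DG with a median of 3.76, and from 20.5 to 72.3 CPM in the CA fields with a median of 42.9. The groups were wide apart, with a log2FC of -3.38 ± 0.24 (FDR = 3.58e-06). SEMA3D, a secreted semaphorin that steers axons, ran from 1.16 to 4.48 CPM in DG against 11.9 to 38.9 CPM, again without overlap (log2FC -3.10 ± 0.24, FDR = 8.42e-06). The cation channel TRPC4 (-2.73), the extracellular matrix protein FREM2 (-2.71), the calcium/calmodulin kinase CAMK1G (-2.66), the prostaglandin E receptor PTGER3 (-2.56), the hyaluronan receptor LAYN (-2.46) and the homeobox gene MEIS2 (-2.44) followed by their log2FC. All 6 were lower in DG in each of the 8 animals, and none overlapped between the groups.

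HAPLN4, a link protein of perineuronal nets (ENSMMUG00000008578), was picked after its values were seen because of 1 library. It ran from 7.85 to 13.8 CPM in 7 DG libraries and stood at 137 CPM in the DG library of animal 2, within the CA range of 105 to 284 CPM. The log2FC was -3.54 ± 0.48 (FDR = 0.000195), and -4.02 without animal 2. The calcium-binding protein CABP7 had the same layout, with 17 to 46.6 CPM in 7 DG libraries, 135 CPM in that of animal 2 and 111 to 163 CPM in the CA fields (log2FC -2.15 ± 0.31, FDR = 0.000285).

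Myelin genes were lower in DG throughout the list. All 8 oligodendrocyte markers tested were called lower, and the list median was -1.36, where 2.41% of all genes were called lower. MBP, the major myelin basic protein, ran from 714 to 1853 CPM in DG (median 1395) and from 2138 to 3928 CPM in the CA fields (median 2833), without overlap and with a log2FC of -1.14 ± 0.11 (FDR = 2.11e-05). ERMN, a cytoskeletal protein of mature oligodendrocytes, had the largest difference of the list, -1.70 ± 0.11 (FDR = 2.96e-06). MOG (-1.44), the myelin regulator MYRF (-1.39), MOBP (-1.36), CNP (-1.20) and the galactolipid enzyme UGT8 (-1.14) were called too, given by log2FC. Of 7 oligodendrocyte precursor genes, GPR17 (-1.21) and BCAS1 (-1.02), both known from the step between precursor and myelinating cell, were called lower. BCAS1 fell under the fold of 2 when animal 3, 6, 7 or 11 was left out, with log2FC of -0.997, -0.96, -0.93 and -0.99. GPR17 fell to -0.991 with the mean choroid plexus level as a covariate. The summed CPM of the 8 oligodendrocyte markers ran from 1584 to 3171 in DG, from 3465 to 8885 in CA1 and from 4154 to 9865 in CA3, and no DG library reached the level of any CA library. Whether the lower share of oligodendrocyte RNA bore on other genes called lower was not tested.

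Other glial and vascular lists held no called gene: 10 astrocyte, 7 microglia, 11 endothelial and pericyte, and 7 ependymal genes were tested. Their medians were -0.22, -0.33, -0.49 and 0.01. At an FDR under 0.05, 5 astrocyte, 5 microglia, 9 endothelial and pericyte and 1 ependymal genes were lower in DG. In the same order 1, 0, 0 and 2 were higher, where 19.2% of all genes were lower and 17.4% higher. Except in the ependymal list most members lay below 0, such as RGS5, a pericyte regulator of G protein signalling, at -0.74 and SLC1A2, the main astrocytic glutamate transporter, at -0.68.

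Some choroid plexus markers were called higher in DG, and unevenly between animals. Of 12 genes listed 7 were tested, which left out TTR, KCNJ13, AQP1, KCNE2 and CLDN2. Of the 7 tested, 4 were called higher: CLIC6 (log2FC 1.71 ± 0.32, FDR = 0.00155), FOLR1 (1.55 ± 0.36, FDR = 0.00467), the sulphate transporter SLC13A4 (1.48 ± 0.33, FDR = 0.00403) and the homeobox gene OTX2 (1.24 ± 0.31, FDR = 0.00710). The other members tested did not pass, PRLR at 0.71 (FDR = 0.0793), SLC4A5 at -0.12 (FDR = 0.662) and KL at -0.58 (FDR = 0.0852). The list median was 1.24, and 0.85% of all genes were called higher. The mean log2(CPM + 1) over the list in DG was above that of CA1 in 7 animals and above that of CA3 in 5. CLIC6 reached 18.4 and 19.4 CPM in the DG of animals 4 and 8 and lay between 1.88 and 9.82 CPM in the other DG libraries, against 0.561 to 10.7 CPM in the CA fields. The summed CPM of the 7 genes ran from 16.4 to 101 in DG (median 37.3), from 10.7 to 31.1 in CA1 (median 19.7) and from 15.2 to 120 in CA3 (median 29.6), and none of the 4 called genes was at 0 in a DG library. A gene without a symbol, ENSMMUG00000016673, was also highest in the DG of animals 4 and 8, at 912 and 649 CPM. It stood at 479 and 387 CPM in the DG of animals 3 and 6 and at 93 to 213 CPM in the other DG libraries. The CA profile of animal 8 held 389 CPM of it, and the others 25 to 133 CPM. Its log2FC was 1.93 ± 0.39 (FDR = 0.00220). It was picked after its values were seen.

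The genes called higher in DG were therefore recounted with the libraries of animals 4 and 8 in view, by alternatives chosen after seeing the data. With animals 4 and 8 removed, 183 genes were called higher, among them 121 of the 128. With the mean choroid plexus level as a covariate, 148 were called higher, among them 103 of the 128. With that covariate, which CLIC6, FOLR1, SLC13A4 and OTX2 themselves make up in part, their log2FC fell to 0.77, 0.38, 0.48 and 0.39 and none passed. SLC22A8, an organic anion transporter named among the top 12 with a log2FC of 1.91 ± 0.38 (FDR = 0.00196), had 1.01 and did not pass (FDR = 0.0987). Without animal 4 the log2FC of OTX2 was 0.96. Without the animal block CLIC6 (FDR = 0.0666), FOLR1 (FDR = 0.0513) and OTX2 (FDR = 0.11) did not pass. With animals 4 and 8 removed, CLIC6, FOLR1, SLC13A4, OTX2 and SLC22A8 kept their calls. BEST3, NTF3, LCK, PLK5, MAB21L2, MUC15, TLL1, LCN1 and GALNT5 kept their calls both with that removal and with the choroid plexus covariate.

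Of 18 interneuron markers, 2 were called lower in DG and none higher, with a median of -0.56, where over all genes 2.41% were called lower and 0.85% higher. CNR1, the cannabinoid receptor of cholecystokinin interneurons and of many pyramidal cells, ran from 5.40 to 30.4 CPM in DG and from 17.6 to 59.1 CPM in the CA fields, with some overlap and a log2FC of -1.65 ± 0.23 (FDR = 0.000223). RELN, the secreted guidance protein reelin, had a log2FC of -1.06 ± 0.10 (FDR = 2.22e-05), lower in all 8 animals, and -0.98 without animal 4. RELN was also under the fold of 2 without the animal block (-0.992) and with animals 4 and 8 removed (-0.925). The same held with transcript integrity (-0.975) or choroid plexus level (-0.868) as a covariate. Of the enzymes that make GABA, GAD2 had a log2FC of -0.73 (FDR = 0.000265) and GAD1 0.09 (FDR = 0.490).

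Markers of new neurons were looked at next. Of 20 immature neuron genes listed 17 were tested, without NEUROD4, IGFBPL1 and MEX3A. Of 18 stem and progenitor genes listed 14 were tested, without SOX2, EOMES, MKI67 and HES5. Of the 17 immature neuron genes none was called higher and 2 were called lower. Of the 14 stem and progenitor genes none was called. With 0.85% of all genes called higher and 2.41% lower, lists of this size are not set apart by holding no higher call. The list medians were -0.48 and -0.18. At an FDR under 0.05, 10 immature neuron genes were lower in DG and 3 higher. Of the stem and progenitor genes 6 were lower and 1 higher, where 19.2% and 17.4% of all genes were. DCX, the microtubule protein doublecortin of migrating neuroblasts, was sparse, at 0.332 to 3.78 CPM in DG (median 1.65) and 0.515 to 5.69 CPM in the CA fields (median 2.63). The ranges overlapped almost fully, though DG was the lower in each animal (log2FC -0.63 ± 0.23, FDR = 0.0495). SOX11, a transcription factor of young neurons, had a log2FC of -1.34 ± 0.33 (FDR = 0.00690) at levels of 0.220 to 0.805 CPM in DG and 0.336 to 1.63 CPM in the CA fields. With animals 4 and 8 removed SOX11 did not pass (log2FC -1.05, FDR = 0.0521), nor with the choroid plexus covariate (-0.91, FDR = 0.191). GAP43, a growth-cone protein that adult pyramidal cells also make, had a log2FC of -1.07 ± 0.17 (FDR = 0.000527), and -0.98 without animal 10 and -0.91 without animal 6. NEUROD1, needed for granule cell formation, had a log2FC of 0.27 ± 0.09 (FDR = 0.0382).

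**Figure D4:**
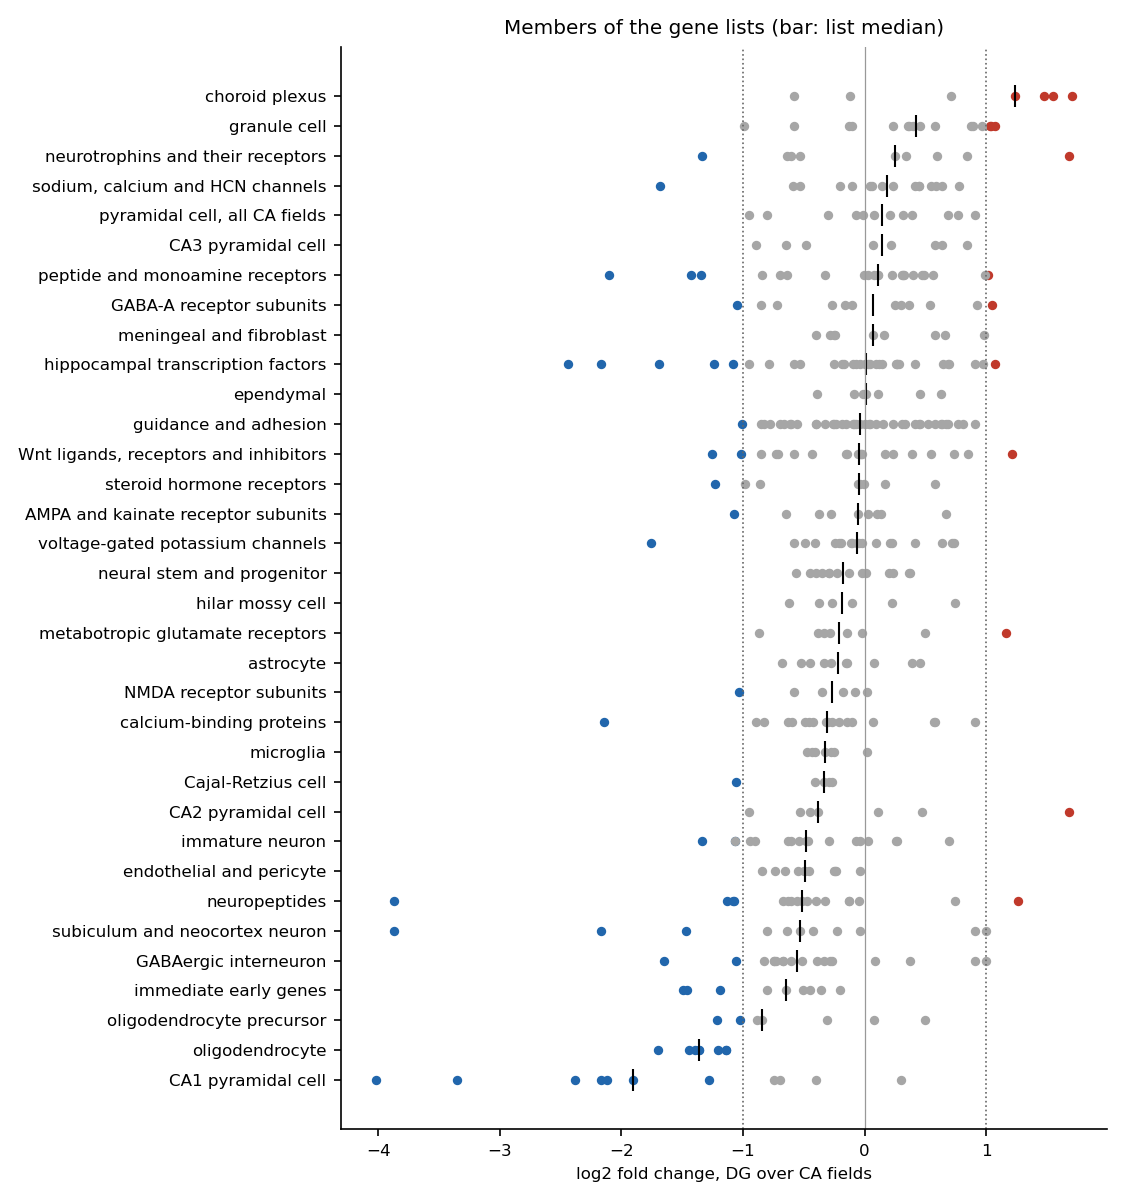
Log2 fold change of DG over the CA fields (x axis) for each tested member of the gene lists with at least 5 tested members (y axis), with genes called higher in red, genes called lower in blue, others in grey and the list median as a black bar. The CA1 pyramidal cell and oligodendrocyte lists lie to the left with medians of -1.91 and -1.36, the choroid plexus list lies to the right with a median of 1.24, and most other lists centre near 0.

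Transcription factors of the hippocampus differed in both directions. Of 32 tested, PROX1 alone was called higher, and 5 were called lower, with a list median of 0.01, against 0.85% and 2.41% of all genes. MEIS2, described above, was in the lower group. ETV1, an ETS factor, ran at 32.3 to 46.9 CPM in DG (median 40.1) and 93.2 to 165 CPM in the CA fields (median 137), fully apart, with a log2FC of -1.69 ± 0.11 (FDR = 2.96e-06). The nuclear receptor NR2F2 had a log2FC of -1.24 ± 0.11 (FDR = 1.48e-05), which was -1.70 against CA1 (FDR = 0.000320) and -0.50 against CA3 (FDR = 0.193). SOX5 had a log2FC of -1.08 ± 0.16 (FDR = 0.000406), and -0.98 without animal 10. TBR1, a T-box factor of glutamatergic neurons, had a log2FC of 0.91 (FDR = 0.000233), under the fold of 2.

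Of the glutamate receptor genes, 1 of 6 NMDA, 1 of 9 AMPA and kainate and 1 of 8 metabotropic genes were called. Of 12 GABA-A receptor genes 1 was called higher and 1 lower. Over all genes 0.85% were called higher and 2.41% lower. More had an FDR under 0.05: 2 of 6 NMDA, 5 of 9 AMPA and kainate, 5 of 8 metabotropic and 9 of 12 GABA-A receptor genes. Over all genes 36.6% did. Of 8 metabotropic glutamate receptors, GRM2, a presynaptic inhibitory receptor of mossy fibres, was called higher: it ran from 44.8 to 83.6 CPM in DG (median 69.4) and from 19.3 to 51.5 CPM in the CA fields (median 29), with slight overlap and a log2FC of 1.16 ± 0.15 (FDR = 0.000179). Among 6 NMDA receptor subunits GRIN3A was called lower (-1.03 ± 0.20, FDR = 0.00201). But it fell under the fold of 2 without animal 3, 4, 7 or 8, at -0.96, -0.999, -0.93 and -0.90. GRIN3A also fell under it with transcript integrity (-0.82) or choroid plexus level (-0.964) as a covariate. The same held without the animal block (-0.922), with separate CA libraries (-0.975) and with animals 4 and 8 removed (-0.836). Among 9 AMPA and kainate subunits GRIK1 was called lower (-1.08 ± 0.14, FDR = 0.000143), and had -0.973 with transcript integrity as a covariate. The medians of these lists were -0.21, -0.27 and -0.05. Of 12 GABA-A receptor subunits, GABRG3 was called higher (1.05 ± 0.19, FDR = 0.00110; 0.89 without animal 6) and GABRE lower (-1.05 ± 0.16, FDR = 0.000418; -0.93 without animal 11 and -0.94 without animal 7). GABRD, the delta subunit of extrasynaptic receptors, ran from 45 to 82.8 CPM in DG, with a log2FC of 0.93 ± 0.12 (FDR = 0.000139), just under the fold of 2.

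Of 17 neuropeptide genes tested, GRP was called higher and NTS, CCK, CARTPT and TRH lower, with a median of -0.51; over all genes too, calls were more often lower (2.41%) than higher (0.85%). GRP, gastrin-releasing peptide (ENSMMUG00000007584), ran from 26.9 to 61.1 CPM in DG (median 48.7) and from 11.7 to 34 CPM in the CA fields (median 19.7). DG was higher in all 8 animals with partial overlap of the groups (log2FC 1.26 ± 0.20, FDR = 0.000496), and its DG level was the highest of the 51 sub-regions in all 8 animals. CCK, cholecystokinin, had a log2FC of -1.08 ± 0.23 (FDR = 0.00297), and -0.92 without animal 10 and -0.88 without animal 6, and it did not pass without the animal block (-0.89, FDR = 0.0629). CARTPT had -1.07 ± 0.22 (FDR = 0.00245), -0.89 without animal 4, -0.96 without animal 6, and -0.50 with the choroid plexus covariate, where it did not pass (FDR = 0.116). TRH, thyrotropin-releasing hormone, had -1.13 ± 0.24 (FDR = 0.00293), -0.996 without animal 4, and did not pass without the animal block (-0.99, FDR = 0.363) or with the choroid plexus covariate (-0.79, FDR = 0.169).

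Of 22 receptors for peptides and monoamines, 1 was called higher and 3 lower, against 0.85% and 2.41% of all genes. The higher gene was TACR1, the receptor of substance P, at 15.3 to 36.4 CPM in DG against 7.12 to 19.5 CPM (log2FC 1.02 ± 0.15, FDR = 0.000390), and it fell under the fold of 2 without animal 3, 6 or 10, at 0.93, 0.93 and 0.98. CRHR2, a receptor for urocortins, was called lower with -2.10 ± 0.43 (FDR = 0.00228), and the dopamine receptor DRD1 with -1.42 ± 0.26 (FDR = 0.00124). CRHR2 was sparse in DG, with a mean of 0.363 CPM of the unscaled library total. ADRB1, a beta-adrenergic receptor, was called lower with -1.34 ± 0.44 (FDR = 0.0300) but did not pass when animal 3, 4, 6, 7, 10 or 11 was left out (FDR from 0.0532 to 0.105), without the animal block (FDR = 0.0576) or with the choroid plexus covariate (FDR = 0.255). In the neurotrophin list of 9 genes, NTF3 was called higher and VGF, a secreted neuropeptide precursor, lower (-1.34 ± 0.14, FDR = 4.51e-05), while BDNF had a log2FC of 0.60 (FDR = 0.00240).

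Activity-regulated genes had lower values in DG. Of 9 immediate early genes 3 were called lower, against 2.41% of all genes, all 9 had a negative log2FC, and the median was -0.65. ARC, a regulator of synaptic AMPA receptors, ran from 6.28 to 37.7 CPM in DG (median 16.8) and from 34.9 to 67.6 CPM in the CA fields (median 44.1), overlapping in the highest DG library, with a log2FC of -1.49 ± 0.28 (FDR = 0.00151). The orphan nuclear receptor NR4A1 had -1.46 ± 0.29 (FDR = 0.00187) and the zinc finger factor EGR2 -1.19 ± 0.22 (FDR = 0.00114), whereas FOS had -0.20 and did not pass. With the choroid plexus covariate NR4A1 did not pass (-1.25, FDR = 0.0520).

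In the lists of ion channels, calcium-binding proteins, hormone receptors, Wnt genes and guidance genes, 1 to 3 members each were called. Over all genes 2.41% were called lower and 0.85% higher, and the 1 call among 41 guidance genes was near the lower share. Counts of 1 to 3 are too small to tell whether a list stood apart from these shares, which was not tested. At an FDR under 0.05 and any fold, 11 guidance genes were higher and 11 lower, where 17.4% and 19.2% of all genes were. Likewise 7 of the sodium, calcium and HCN channels were higher and 2 lower. Of the potassium channels 4 were higher and 3 lower, and of the calcium-binding proteins 3 were higher and 9 lower. Of 19 voltage-gated potassium channel genes KCNG1, a silent subunit, was called lower (-1.76 ± 0.18, FDR = 2.57e-05). Of 16 sodium, calcium and HCN channel genes CACNA1G, a T-type calcium channel, was called lower, at 5.43 to 19.3 CPM in DG against 21.4 to 45.9 CPM and without overlap (-1.68 ± 0.20, FDR = 9.30e-05). Of 18 calcium-binding protein genes only CABP7 was called. Of 8 steroid and thyroid hormone receptors THRB was called lower (-1.23 ± 0.17, FDR = 0.000266). Of 20 Wnt pathway genes LGR5, an R-spondin receptor, was called higher (1.22 ± 0.19, FDR = 0.000409), and RSPO3, one of its ligands, was called lower (-1.25 ± 0.14, FDR = 6.12e-05). The Wnt inhibitor SFRP1 was called lower at -1.01 ± 0.11 (FDR = 4.25e-05). It fell under the fold of 2 without animal 3, 6, 7 or 11, at -0.97, -0.999, -0.96 and -0.92. SFRP1 also fell under it with DESeq2 (-0.995), with the size factors of DESeq2 (-0.994) and with transcript integrity as a covariate (-0.989). Of 41 guidance and adhesion genes PLXND1, a semaphorin receptor, was called lower at -1.01 ± 0.08 (FDR = 1.06e-05). It fell under the fold of 2 without animal 3, 4, 6 or 8, at -0.97, -0.99, -0.98 and -0.97. PLXND1 also fell under it with DESeq2 (-0.99), its size factors (-0.991), a thinned CA sum (-0.959) and separate CA libraries (-0.998). The same held with transcript integrity (-0.959) or choroid plexus level (-0.975) as a covariate and with animals 4 and 8 removed (-0.951). The medians of these 6 lists lay between -0.31 and 0.19.

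Testing the CA fields separately gave like numbers. Against CA1, 154 of 14796 genes (1.04%) were called higher in DG and 369 (2.49%) lower, and against CA3 118 (0.798%) and 329 (2.22%). In the same direction against both, 69 genes (0.466%) were higher in DG and 243 (1.64%) lower. All 69 were among the 128 called against the sum, as were 238 of the 243. These comparisons share the DG libraries. With animals 6 and 11 removed, chosen after seeing the data for the order of their CA libraries, the calls against CA1 were 506 in place of 523 (3.53%), those against CA3 261 in place of 447 (3.02%), and those against both 166 in place of 312 (2.11%). Between CA3 and CA1, with all 8 animals kept, 3 genes were called and named after their values were seen. They were CYP26B1, a retinoic acid-degrading enzyme (log2FC 1.18, CA3 over CA1), the Wnt inhibitor WIF1 (1.01) and HSF2BP (-1.65).

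The difference between DG and the CA fields was not found to depend on age stage or sex. No gene passed an FDR of 0.05 for the interaction with age stage (0.0% of 15052; 676 genes at an unadjusted p under 0.05) or with sex (0.0%; 272 genes) in edgeR, and DESeq2 called none either. Within DG no gene of 14583 passed between the 4 mid-aged and the 4 young animals with sex as covariate (0.0%; 1409 genes at an unadjusted p under 0.05), whereas DESeq2 called 49. Without animal 7 edgeR called 324 genes, 288 of them higher in mid-aged animals. DCX in DG had a log2FC of 0.76 between mid-aged and young animals (FDR = 0.741), and CALB1 had 0.16 (FDR = 0.793).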

How the data were processed

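RNA libraries of DG, CA1 and CA3 from 8 rhesus macaques were analysed. The deposited values are counts: the authors used Trim Galore 0.4.4 on libraries whose reads were of low quality, mapped the reads with HISAT2 2.0.5 and counted them per Ensembl gene with HTSeq 0.6.1, without normalization. Neither strand nor overlap settings of HTSeq are given in the sources used here, which leaves overlapping genes uncertain. A reference table paired 17572 of the 30807 gene IDs with a symbol, and the remaining IDs are not analysed here by name. The deposited transcript assembly was not used.

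Counts of CA1 and CA3 were summed within each animal. Differences were tested in R 4.3.3 with edgeR 4.0.16 and limma 3.58.1 (TMM, filterByExpr, quasi-likelihood F test, Benjamini-Hochberg FDR over all genes tested), with the animal as block, and called at FDR < 0.05 and a fold above 2. CA1 and CA3 were also kept apart in a fit of 24 libraries. For interactions and age the call was FDR < 0.05 alone. The SE of a log2FC was obtained from its size and the F statistic. Same-numbered libraries came from the same animal by the labels, and their deviations from the group means correlated at 0.301 to 0.805. Libraries are single samples per animal and sub-region, and precision is limited by the count totals given above. Alternatives used DESeq2 1.42.0, other filters and scalings, a transcript integrity covariate taken from the study, and the omission of each animal. The tests were run on simulated counts without differences between animals and with only large changes, placed in well-covered genes. That run does not show how the tests do on folds near 2, on sparse genes or on paired libraries. Summaries used Python 3.11.15, pandas 2.3.3, numpy 2.4.6 and scipy 1.17.1, and figures matplotlib 3.10.9.

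The comparison and the gene lists were chosen with earlier results of these data known. Named genes are, in each direction, the 12 of largest log2FC that were called, changed alike in all 8 animals, reached a mean of 1 CPM where higher and had a symbol of their own, BEST3 and GALNT5, and called or defining members of the lists. Within-animal log2 differences used a pseudocount of 0.1. Some list members are counted with their list but not reported here by name.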

Additional observations from a re-analysis of the deposited data

Results flagged for a closer look

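In 8 genes named above the within-animal log2 difference of DG over the CA fields in 1 animal stood apart from the other 7 by Dixon's criterion, and in 7 of these genes the animal was animal 2. There the difference was 0.39 for HAPLN4 (median of the 8 animals -3.79), 0.285 for CABP7 (median -2.52), -0.48 for MPPED1 (median -2.41), 1.05 for SOX11 (median -1.31), 0.055 for GRIK1 (median -1.25), -0.20 for VGF (median -1.42) and -0.23 for LGR5 (median 1.38). In animal 3 the difference of GPR17 was -2.65 (median -1.10). Among the marker lists, the mean log2(CPM + 1) of choroid plexus markers in the CA3 library of animal 8 was 3.77 against a group median of 1.83, and that of granule cell markers in the CA3 library of animal 6 was 5.19 against 5.58. In all, 92 sets of 8 values were looked at, and chance alone flags about 1 in 20.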

How the results depend on the processing

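The 491 calls against the CA fields ranged from 411 to 633 when 1 animal was left out, and the highest number came without animal 2. Those against CA1 (523) ranged from 453 to 643, those against CA3 (447) from 338 to 626, and those against both (312) from 231 to 428. Without the animal block, that is without pairing, the calls were 421, 457, 384 and 266. The stricter fold of 4 left 34, 61, 34 and 27, since fewer genes reach it. With animals 6 and 11 removed the calls were 261 against CA3 and 166 against both, and the cause was not tested. Between age stages within DG the count of 0 became 49 in DESeq2 and ranged from 0 to 324 with 1 animal left out, the highest without animal 7; the cause was not tested. The detection rule of the study gave 728 calls against the CA fields, no filter 681, DESeq2 504, its size factors 484, the transcript integrity covariate 450, separate CA libraries 471 and a thinned CA sum 445. No called gene followed by name changed its direction, and 52 of 80 genes followed kept their side of the threshold under all alternatives. For the other genes followed, not every alternative that took away the call is named above. PLXND1 lost its call under 11 alternatives, GRIN3A under 9, ADRB1 under 8 and SFRP1 under 7. Depth limits genes near or under 1 CPM, such as GPR101, POU3F1, DCX, CRHR2, ADRB1, TRH and FOXP2. On CPM of the unscaled library total, the DG means of CRHR2, ADRB1, TRH and FOXP2 were 0.363, 0.474, 0.923 and 0.587.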

Other observations

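The remaining lists stand beside 0.85% of all genes called higher and 2.41% called lower. They were small, and none was tested as a set. Of 7 genes listed for CA2 pyramidal cells, NTF3 was called higher and none lower, with a median log2FC of -0.38; of 6 hilar mossy cell genes none was called, with a median of -0.19. Of 11 genes of subicular and neocortical neurons 3 were called lower, among them NTS and the forkhead factor FOXP2 (log2FC -1.47 ± 0.32, FDR = 0.00356), with a median of -0.53. FOXP2 did not pass with the choroid plexus covariate (-1.02, FDR = 0.135) or without the animal block (FDR = 0.0513). Of 5 genes listed for Cajal-Retzius cells, RELN was called lower, with a median of -0.33. Of 9 meningeal and fibroblast genes none was called, with a median of 0.07, and no gene of the blood list was tested.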
